A study of Mus musculus with 60 samples.

Results

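1-cell embryos made by transfer of a fibroblast nucleus into mouse oocytes were compared with the fibroblasts that had supplied the nuclei. The comparison held 6 of the 60 libraries of the series, 3 single NTM 1-cell embryos and 3 libraries of mouse embryonic fibroblasts (MEFs), and it was read over the 25848 autosomal genes among the 27238 genes of the expression table. The NTM embryos were reconstructed from enucleated metaphase II oocytes of adult superovulated BDF1 females (the F1 hybrid of C57BL/6 and DBA/2) and BDF1 fibroblast nuclei injected with a Piezo drive. They were then activated in strontium chloride with cytochalasin B and Scriptaid, a histone deacetylase inhibitor, cultured in vitro, and collected at the pronuclear stage. The MEFs came from mid-gestation BDF1 fetuses and were serum-starved before use, so both groups shared the BDF1 background. How many cells went into a MEF library is not given in the sources used here, and the 2 groups differed in cell type, cell number, culture and stage of the cell cycle, which cannot be told apart. Other embryos and donor cells of the series were set beside them. In vivo embryos came from C57BL/6 females mated with DBA/2 males, so their ooplasm was not that of BDF1 females. The paper describes no activation or Scriptaid treatment for them. Cumulus cells were taken from superovulated BDF1 females and kept in the cold until use.

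A growing oocyte stockpiles messenger RNA and protein and then shuts down transcription, so the RNA of an embryo just after nuclear transfer is largely that of the ooplasm. Ooplasm is rich in egg coat proteins, factors that store or destroy maternal RNA, regulators of meiotic arrest and chromatin factors that act on the incoming nucleus. Fibroblasts are mesenchymal cells that secrete collagen and other matrix, pull on it through actin fibres, and respond to serum by a burst of immediate early genes.

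Levels are RPKM, reads per kilobase of exon scaled to the total of reads on genes, as the authors deposited them, and differences are NTM 1-cell minus MEF on the log2(RPKM + 1) scale, printed ± standard error. A gene was called higher or lower when the limma test, fitted over all genes of the table with a mean RPKM of at least 0.5, gave a Benjamini-Hochberg adjusted p under 0.05 and a difference of at least 1 in size. Embryo libraries held 14158394 to 16507414 reads on genes and MEF libraries 37074628 to 47830132. These reads set only a lower bound on the counting error, since the cDNA (DNA copied from the RNA) was amplified before sequencing. At 2000 nt of exon, 3 reads were worth 0.0909 to 0.106 RPKM in the embryos and 0.0314 to 0.0405 RPKM in the MEFs. The embryos correlated at r = 0.926 to 0.934 with one another, the MEF libraries at 0.780 to 0.809, and embryos with MEFs at 0.0908 to 0.132, over 13082 genes on the log2(RPKM + 1) scale. The embryos and the MEF libraries were separate samples, and the p-values measure the spread between these samples only.

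The label of each group was checked against markers. Of 13 autosomal fibroblast markers, 12 were tested and all 12 were lower in the embryos, and their summed level was 9167 to 11775 RPKM in the MEFs and 0.396 to 2.61 RPKM in the embryos. Of 15 oocyte markers 14 were tested, 13 of them were higher in the embryos, and their summed level was 6895 to 9323 RPKM there. In the MEFs that sum was 23.0, 16.8 and 0 RPKM in replicates 1, 2 and 3. The same split held for abundant embryo transcripts in general: of 404 autosomal genes at 100 RPKM or more in every NTM 1-cell library, 134 were listed at 0 in MEF replicate 3, while 129 of those 134 were above 0 in MEF replicate 1 and 127 in replicate 2, at a median of 0.0661% and 0.0673% of the embryo level. The 3 cumulus cell (CC) libraries held 128, 126 and 122 of the 134, at 0.0902%, 0.0661% and 0.0642%. The source of these traces was not tested. MEF replicates 1 and 2 were also left out, an alternative chosen after seeing the data. There the lone MEF library is assumed to vary as the embryos did. The MEF libraries correlated less with one another than the embryos did, so this may understate the spread of the MEFs. The median difference over autosomal genes tested was then -0.06. Without MEF replicate 3 it was -0.45, with 2956 genes higher and 3897 lower of 12317. Of the cumulus and granulosa markers, the aromatase gene Cyp19a1 was higher in the embryos, at 4.52, 4.05 and 4.26 RPKM against 0 in every MEF library (difference 2.40 ± 0.30, adjusted p = 5.61e-04), and 3 of the 6 tested were lower. Inha, Cyp11a1, Amh and Foxl2 were at 0 in all 3 embryos. Ptx3 and Tnfaip6, matrix-binding proteins that cumulus cells and fibroblasts both make, were high in the MEFs, where the 13 markers summed to 517 to 1231 RPKM against 6.81 to 7.30 RPKM in the embryos. Macrophage markers summed to 0 to 1.93 RPKM in the embryos and 4.94 to 23.0 RPKM in the MEFs, with Adgre1, Cd14 and Fcer1g at 0 in all 6 libraries.

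More of the autosomal genes tested were called than were not between embryo and donor. Of 12537 autosomal genes tested, 3143 were higher in NTM 1-cell embryos (25.1%) and 3768 were lower (30.1%), so that 55.1% were called. The median difference over all of them was -0.54, and median-ratio scaling moved it to -0.24, with 3587 genes then higher and 3394 lower. The ranges of the embryos and the MEFs did not overlap for 8113 genes (64.7%), with the embryos above in 30.1% and the MEFs above in 34.6%. Only 152 genes (1.21%) had a 95% interval that lay wholly within 1 log2 unit of no difference. In 654 tested genes every embryo was above 0 and every MEF library at 0, and in 1083 genes the reverse held. Of 353 genes at 100 RPKM or more in every MEF library, 59 (16.7%) were listed at 0 in all 3 embryos. Of 404 genes at that level in every embryo, 5 (1.24%) were at 0 in all MEF libraries. In MEF replicate 3 alone, however, 134 of the 404 were listed at 0, so the low count of 5 rests on trace values in the other MEF libraries. The embryo libraries also held fewer reads on genes. For both reasons, these counts of zeros do not show which group lacked more of the other's transcripts. Where a library holds more than 1 cell, fewer cells of a type and less RNA per cell cannot be told apart. Ribosomal protein genes that all cells use were also among the zeros, so a gene at 0 is described here as listed at 0, and its fitted difference is the MEF level on the log2(RPKM + 1) scale rather than a bound.

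**Figure D1:**
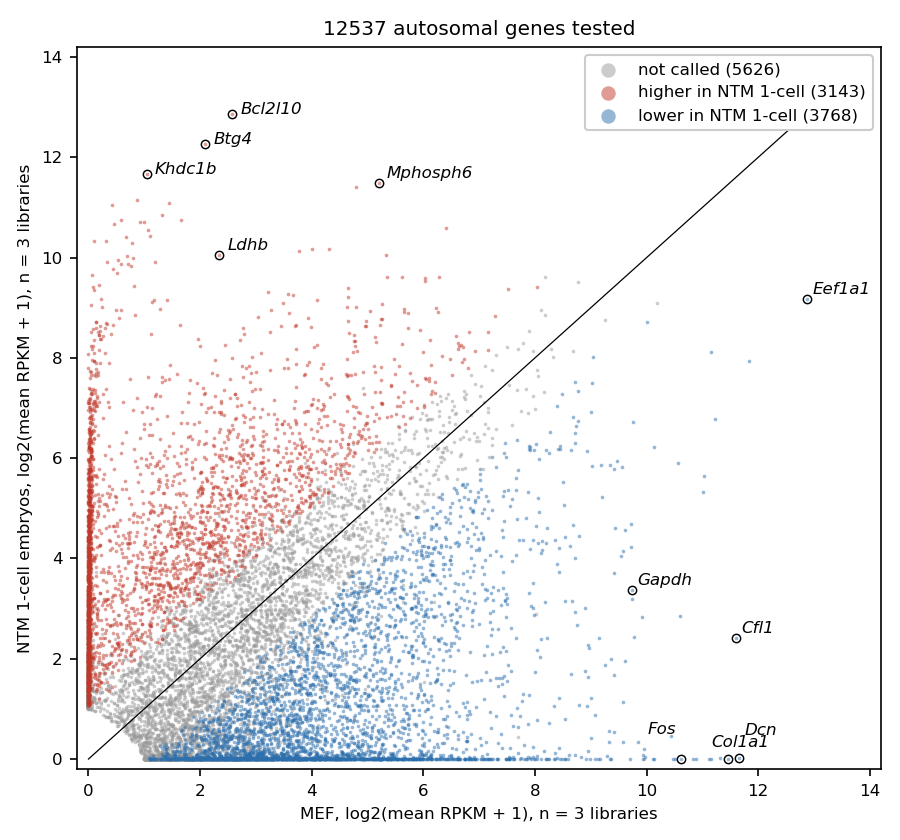
Mean level of each of the 12537 autosomal genes tested, in the MEFs on the horizontal axis and in NTM 1-cell embryos on the vertical axis, both as log2(mean RPKM + 1) over 3 libraries. The line marks equal levels, red points are the 3143 genes higher in the embryos and blue points the 3768 lower ones, and both clouds reach the axes, where genes were near 0 in 1 of the groups.

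No gene was among the 10 most abundant autosomal genes of both groups. In the embryos the most abundant autosomal transcript was Bcl2l10, an oocyte member of the Bcl2 family of apoptosis regulators, at 8824, 6138 and 7470.1 RPKM, against 8.32, 6.52 and 0 RPKM in the MEFs (difference 10.81 ± 0.82, adjusted p = 5.72e-05). Btg4, the adaptor that brings the CCR4-NOT deadenylase to maternal RNA, followed at 5877, 3875 and 5032 RPKM in the embryos and 4.83, 4.88 and 0 RPKM in the MEFs (difference 10.55 ± 0.69, adjusted p = 3.28e-05). All 3 embryos lay far above all 3 MEF libraries for both genes. In the MEFs Eef1a1, the elongation factor that delivers aminoacyl-tRNA to the ribosome, ranked first with 8709, 7541 and 6232 RPKM, and the embryos held 416, 854 and 449 RPKM (difference -3.77 ± 0.29, adjusted p = 6.23e-05). The matrix proteoglycan Dcn and the collagen chain Col1a1 were among the 10 most abundant there. The 10 leading autosomal genes took 10.3% to 11.9% of the summed autosomal RPKM in the embryos and 10.1% to 11.3% in the MEFs. The ranking by abundance was made after the values were seen.

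The largest positive differences, after 5 gene models were set aside, were all in genes known from oocytes. Bcl2l10 and Btg4 were 2 of these 10 genes. Khdc1b, of a family of oocyte KH-domain genes, was at 3316, 2937 and 3493 RPKM in the embryos and 1.76, 1.41 and 0 RPKM in the MEFs (difference 10.75 ± 0.41, adjusted p = 4.84e-06). Oog1, a leucine-rich oocyte gene, was at 1834, 1487 and 1587 RPKM in the embryos and 0.524, 0.581 and 0 RPKM in the MEFs (difference 10.25 ± 0.28, adjusted p = 3.08e-06). No MEF value of these genes exceeded 10 RPKM and no embryo value fell under 1000, and in each of them MEF replicate 3 was at 0. The F-box genes Fbxw24 and Fbxw28 differed by 10.20 ± 0.31 and 9.88 ± 0.39. The others were Tcl1b1 (9.83 ± 0.41), the homeobox gene Obox5 (9.80 ± 0.32), the ubiquitin ligase gene Rfpl4 (9.71 ± 0.48) and Oas1d (9.60 ± 0.43). Adjusted p-values over these 10 genes ran from 3.08e-06 to 5.72e-05. Khdc1, Oog, Fbxw, Tcl1b, Obox and Oas1 genes have near-identical copies among which reads could have been split, so the level of a single copy is uncertain.

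Among the 10 genes named for the largest negative differences, Dcn came first, with 3343, 2982 and 3371 RPKM in the MEFs and 0, 0.0325 and 0.0291 RPKM in the embryos (difference -11.63 ± 0.21, adjusted p = 3.02e-06). The chemokine Ccl2 was at 3565, 2357 and 1754 RPKM in the MEFs and at 0.0621, 0 and 0 RPKM in the embryos (difference -11.23 ± 0.31, adjusted p = 3.23e-06). The tetraspanin Cd63 of late endosomes and exosomes was at 2207, 1680.4 and 2922 RPKM in the MEFs and listed at 0 in every embryo (difference -11.11 ± 0.28, adjusted p = 3.02e-06). No embryo exceeded 0.1 RPKM for any of the 3. The chemokines Cxcl1 and Ccl7 and the secreted serpin Serpinf1, at means of 2232 ± 439.8, 1454 ± 451 and 1419 ± 121 RPKM (± SD, n = 3) in the MEFs, were likewise at 0 in every embryo. Col1a1, Ccn1, Col3a1 and Fos made up the 10. Their adjusted p-values ran from 3.02e-06 to 3.83e-06.

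Genes were then followed in 34 lists by role, which hold 722 different autosomal genes. They were fixed with earlier results of these data known, and their counts are read beside the 25.1% higher and 30.1% lower over all autosomal genes tested and the median difference of -0.54.

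**Figure D2:**
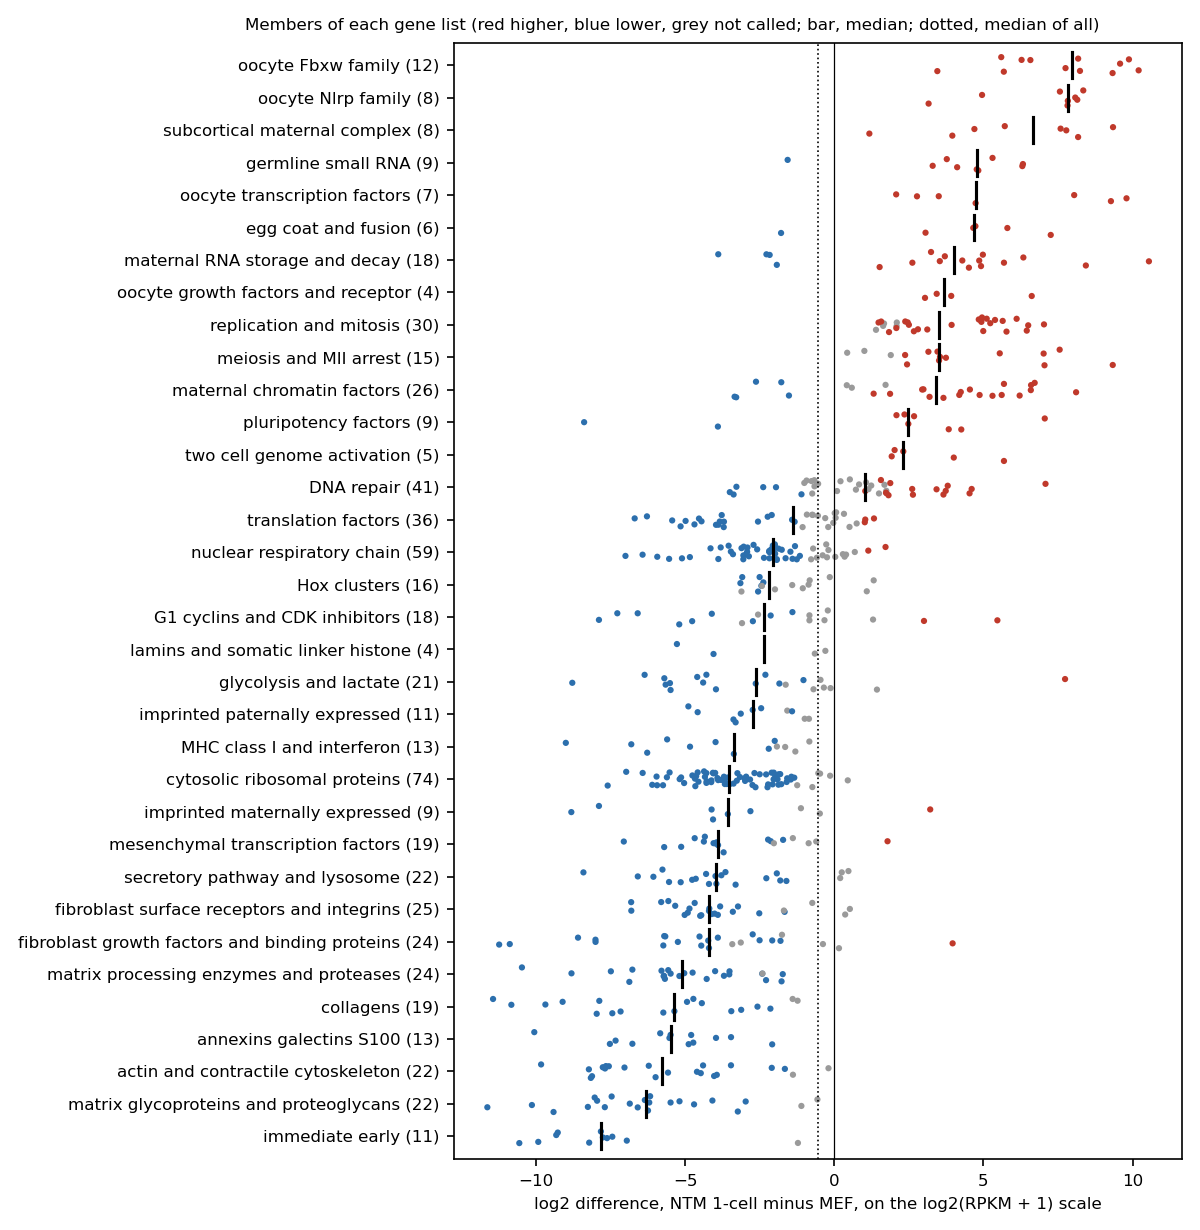
Log2 difference of each tested member of the 34 gene lists, NTM 1-cell minus MEF on the log2(RPKM + 1) scale, with the number tested in parentheses. Red members were higher, blue lower and grey not called, the bar is the list median and the dotted line the median of all 12537 genes at -0.54. Lists run from Fbxw genes with a median of 7.96 at the top to immediate early genes at -7.82 at the bottom.

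Egg coat and fusion genes were higher in the embryos in 5 of 6 cases, with a median difference of 4.69. Zp2 and Zp3 encode zona pellucida proteins, which surround the egg. Zp2 was at 176, 148 and 149 RPKM in the embryos and 0.0539, 0.0490 and 0 RPKM in the MEFs (difference 7.26 ± 0.26, adjusted p = 4.71e-06). Zp3 was at 97.1, 44.7 and 44.6 RPKM in the embryos and 0.108, 0.0612 and 0 RPKM in the MEFs (difference 5.80 ± 0.39, adjusted p = 3.41e-05), and 1 embryo lay well above the other two. Zp1, which crosslinks the coat, was lower than both at 24.8, 23.4 and 31.9 RPKM in the embryos (difference 4.73 ± 0.28, adjusted p = 2.29e-05). The sperm receptor gene Izumo1r was at 25.2, 33.0 and 18.5 RPKM in the embryos and 0.0409, 0.0349 and 0 RPKM in the MEFs (difference 4.66 ± 0.32, adjusted p = 3.79e-05). The exception was Cd9, a tetraspanin needed on the egg for fusion and also found on many somatic cells. It was at 18.3, 36.6 and 46.2 RPKM in the embryos and 109.9, 67.2 and 184 RPKM in the MEFs (difference -1.78 ± 0.48, adjusted p = 0.0181). The Cd9 call was lost without MEF replicate 1, MEF replicate 3, NTM 1-cell replicate 1 or NTM 1-cell replicate 2, at -1.89 to -1.41 and adjusted p-values of 0.0508 to 0.0620. Under median-ratio scaling it was lost as well (-1.32, adjusted p = 0.0522).

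Genes of the subcortical maternal complex, a protein assembly under the egg membrane that the first cleavages need, were higher in all 8 cases (median 6.65). Nlrp5 was at 145, 263 and 244 RPKM in the embryos and 0.168, 0.137 and 0 RPKM in the MEFs (difference 7.59 ± 0.33, adjusted p = 7.01e-06). Padi6 was at 302, 348 and 341 RPKM against 0.159, 0.298 and 0 RPKM in the MEFs (difference 8.17 ± 0.26, adjusted p = 3.84e-06). For Ooep the values were 202, 371 and 241 RPKM in the embryos and 0.0555, 0.643 and 0 RPKM in the MEFs (difference 7.78 ± 0.36, adjusted p = 8.68e-06). Tle6 stood apart, because 2 MEF libraries held it well above the trace level, at 13.7, 6.76 and 0 RPKM, with 137, 96.5 and 147 RPKM in the embryos (difference 4.70 ± 0.94, adjusted p = 0.00505). The 8 other oocyte Nlrp genes were all higher too (median 7.82), with Nlrp14 at 305, 410.1 and 345 RPKM in the embryos (difference 8.08 ± 0.30, adjusted p = 4.84e-06) and Nlrp9b at 28.7, 36.2 and 29.2 RPKM (difference 4.95 ± 0.28, adjusted p = 1.72e-05). Every one of the 12 Fbxw genes of the oocyte cluster was higher (median 7.96), among them Fbxw15 at 705, 735 and 601 RPKM in the embryos and 0.0794, 0.0902 and 0 RPKM in the MEFs (difference 9.33 ± 0.24, adjusted p = 3.02e-06). Nlrp and Fbxw genes lie in clusters of similar copies, and the split of reads among copies is uncertain. With MEF replicates 1 and 2 left out, the medians were 7.35 for the complex genes, 7.93 for the Nlrp genes and 8.12 for the Fbxw genes.

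Oocyte signalling and transcription factor genes followed the same direction. The growth factor Gdf9, by which the oocyte steers its cumulus cells, was at 275, 132 and 182 RPKM in the embryos and 1.69, 1.62 and 0 RPKM in the MEFs (difference 6.62 ± 0.50, adjusted p = 5.46e-05). The receptor Kit was at 7.17, 12.3 and 10.9 RPKM in the embryos, against 0.0133, 0.0121 and 0 RPKM (difference 3.43 ± 0.32, adjusted p = 1.43e-04), while its ligand Kitl was lower in the embryos at 1.25, 2.12 and 6.43 RPKM, against 9.34, 18.2 and 18.9 RPKM in the MEFs (difference -2.08 ± 0.53, adjusted p = 0.0138). So the receptor lay on the embryo side and the ligand on the donor side. The Kitl call was lost without NTM 1-cell replicate 1 or NTM 1-cell replicate 2, at -1.95 to -1.71 and adjusted p-values of 0.0545 to 0.0602. All 4 autosomal genes of the growth factor list were higher, and so were all 7 tested oocyte transcription factor genes (median 4.74). Obox5 was at 1384, 1255 and 1446 RPKM in the embryos and 0.878, 0.909 and 0 RPKM in the MEFs, and Nobox was at 15.2, 41.9 and 28.5 RPKM in the embryos and 0.0236, 0.0536 and 0 RPKM in the MEFs (difference 4.74 ± 0.41, adjusted p = 1.01e-04). Figla, the factor that turns on zona genes in growing oocytes, was at 0.338, 0 and 0 RPKM in the embryos and 0 in all MEF libraries, under the filter with Sohlh1, Obox3 and Obox6.

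The promoters of 3 genes, picked after their values were seen, are shown because their expression lay on opposite sides of the comparison and each holds a motif described below. They are the 250 bases before the transcript start from RefSeq (GRCm38.p6), written 5′ to 3′ on the strand of the gene. Capitals mark CANNTG, the E-box bound by helix-loop-helix factors such as Figla, in Zp3 (chr5:135979855-135980104, plus strand), and the CArG box, the core of the serum response element, in the contractile genes Myl9 (chr2:156775214-156775463, plus strand) and Vcl (chr14:20929148-20929397, plus strand). Both motifs read the same on either strand and do not overlap here.

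Zp3: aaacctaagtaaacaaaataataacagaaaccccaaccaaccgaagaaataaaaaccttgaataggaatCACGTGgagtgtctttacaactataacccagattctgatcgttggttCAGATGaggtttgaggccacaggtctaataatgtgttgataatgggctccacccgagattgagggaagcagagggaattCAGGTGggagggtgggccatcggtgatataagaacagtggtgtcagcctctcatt

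Myl9: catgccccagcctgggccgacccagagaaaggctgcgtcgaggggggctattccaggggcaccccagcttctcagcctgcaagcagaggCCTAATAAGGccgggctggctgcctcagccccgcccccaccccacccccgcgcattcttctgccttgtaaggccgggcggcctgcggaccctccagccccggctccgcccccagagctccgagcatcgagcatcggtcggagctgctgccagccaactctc

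Vcl: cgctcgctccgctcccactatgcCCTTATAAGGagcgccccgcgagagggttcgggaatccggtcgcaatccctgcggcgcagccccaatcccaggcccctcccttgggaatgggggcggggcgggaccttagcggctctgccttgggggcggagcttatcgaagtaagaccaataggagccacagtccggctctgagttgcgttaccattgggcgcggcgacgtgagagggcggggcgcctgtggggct

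The window of Zp3 held 3 E-boxes, the first bases of which lay at -181, -134 and -55 from the start, and 66.0% of 27025 promoters of this length held at least 1. A CArG box was in 1.40% of them. It began at -161 in Myl9 and at -227 in Vcl. Vcl, which encodes vinculin of the focal adhesions, was at 0.973, 0.996 and 0.151 RPKM in the embryos and 35.9, 73.2 and 17.2 RPKM in the MEFs (difference -4.47 ± 0.56, adjusted p = 5.50e-04). A match is a description of the letters and not of a bound site. Only 73.3% of the tested autosomal genes had a promoter in the table, under the 80% needed, so shares of motifs among higher and lower genes were not compared.

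Genes that store, translate and destroy maternal RNA were higher in 14 of 18 cases and lower in 4 (median 4.00). Besides Btg4 they included Zar1, a zygote arrest protein bound to stored RNA, at 32.6, 12.3 and 32.3 RPKM in the embryos and 0.137, 0.101 and 0 RPKM in the MEFs (difference 4.51 ± 0.43, adjusted p = 1.65e-04). Cpeb1, which controls cytoplasmic polyadenylation, was at 46.8, 37.4 and 35.0 RPKM in the embryos and 0.187, 6.59 and 7.63 RPKM in the MEFs (difference 3.24 ± 0.76, adjusted p = 0.00992), so its MEF values were scattered from trace to several RPKM. The germ cell Y-box protein Ybx2 was low in the embryos at 1.84, 1.94 and 1.83 RPKM, and at 0 in the MEFs (difference 1.52 ± 0.34, adjusted p = 0.00785). Its call was lost with 1 fit over all 20 groups (1.52, adjusted p = 0.0658). The 4 lower genes act on RNA in somatic cells as well. Zfp36l2, which binds AU-rich elements, was at 0.560, 1.36 and 2.81 RPKM in the embryos and 38.6, 44.4 and 24.4 RPKM in the MEFs (difference -3.89 ± 0.43, adjusted p = 3.22e-04). The helicase Ddx6 and the terminal uridylyltransferases Tut4 and Tut7 differed by -1.93 ± 0.37, -2.17 ± 0.39 and -2.27 ± 0.44, with adjusted p-values of 0.00393, 0.00298 and 0.00423. The Tut7 call was lost with MEF replicates 1 and 2 left out (-2.17, adjusted p = 0.108).

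Meiotic genes were higher in 12 of 15 cases and lower in none (median 3.51). Fbxo43, the inhibitor of the anaphase-promoting complex that keeps the egg in metaphase II, was at 139.9, 106 and 175 RPKM in the embryos and 0.0765, 0.127 and 0 RPKM in the MEFs (difference 7.02 ± 0.30, adjusted p = 6.91e-06). Wee2, an oocyte kinase that restrains Cdk1, was at 215, 209.5 and 207 RPKM in the embryos and 0.189, 0.198 and 0 RPKM in the MEFs (difference 7.55 ± 0.25, adjusted p = 3.98e-06). Mos, the kinase at the head of the arrest pathway, was low at 1.17, 0.420 and 2.22 RPKM in the embryos and 0.131, 0.0745 and 0 RPKM in the MEFs, and it did not pass the test (difference 1.01 ± 0.44, adjusted p = 0.0932). All embryos lay above all MEFs for Mos as well. The Mos call was made without NTM 1-cell replicate 2 (1.31, adjusted p = 0.0376). Germline small RNA genes were higher in 8 of 9 cases (median 4.78), with the RNA helicase Ddx4 at 30.8, 22.2 and 27.8 RPKM and the piRNA pathway gene Gtsf1 at 36.7, 40.6 and 14.1 RPKM in the embryos (difference 4.78 ± 0.28, adjusted p = 2.23e-05 and difference 4.83 ± 0.45, adjusted p = 1.35e-04). Ago2, the slicer of RNA interference in all tissues, was lower at 1.32, 0.785 and 0.111 RPKM, against 4.29, 3.20 and 4.35 RPKM in the MEFs (difference -1.56 ± 0.38, adjusted p = 0.0116), a call lost with MEF replicates 1 and 2 left out (-1.68, adjusted p = 0.102).

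Chromatin factors of the ooplasm, which remodel an incoming nucleus, were higher in 18 of 26 cases and lower in 5 (median 3.43). Npm2, which decondenses sperm chromatin, was at 285, 457 and 251 RPKM in the embryos and 0.190, 0.325 and 0 RPKM in the MEFs (difference 8.11 ± 0.33, adjusted p = 5.74e-06). The oocyte linker histone H1foo was at 179.7, 77.6 and 212 RPKM in the embryos and 4.07, 3.35 and 0 RPKM in the MEFs (difference 5.69 ± 0.71, adjusted p = 5.55e-04), and Dppa3, which guards maternal DNA methylation, at 70.6, 56.6 and 103 RPKM in the embryos and 0.0532, 0 and 0 RPKM in the MEFs (difference 6.21 ± 0.32, adjusted p = 1.31e-05). The groups did not overlap for any of the 3. The dioxygenase Tet3 showed a difference of 4.55 ± 0.59, adjusted p = 6.87e-04 and the maintenance methyltransferase Dnmt1 a difference of 4.24 ± 1.03, adjusted p = 0.0114. For Dnmt1 the MEF values ran over 4.05, 19.1 and 0 RPKM and the embryo values over 58.3, 133 and 85.6 RPKM. The Dnmt1 call was lost without NTM 1-cell replicate 2 or NTM 1-cell replicate 3, at 3.94 to 4.25 and adjusted p-values of 0.0506 to 0.0594.

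The 5 lower chromatin genes were the corepressor Trim28, the methyltransferase Ehmt2, the demethylases Kdm5b and Kdm4b, and the Polycomb subunit Ring1. Kdm4b, which removes H3K9 methylation, was at 0.0577, 0 and 0.347 RPKM in the embryos and 7.74, 9.34 and 13.7 RPKM in the MEFs (difference -3.29 ± 0.34, adjusted p = 2.19e-04). Kdm5b, which removes H3K4 methylation, was at 0.00853, 0.0163 and 0 RPKM in the embryos and 3.38, 15.9 and 13.4 RPKM in the MEFs (difference -3.34 ± 0.55, adjusted p = 0.00202). Ehmt2 had 1 MEF library far under the other two, with 11.8, 10.97 and 0.598 RPKM (difference -2.62 ± 0.81, adjusted p = 0.0303). The Ehmt2 call was lost without MEF replicate 1, MEF replicate 2, NTM 1-cell replicate 1, NTM 1-cell replicate 2 or NTM 1-cell replicate 3, at -2.63 to -2.11 and adjusted p-values of 0.0940 to 0.101. Trim28 and Ring1 differed by -1.52 ± 0.40 and -1.78 ± 0.37. The Trim28 call was lost under median-ratio scaling (-1.07, adjusted p = 0.0622) and with MEF replicates 1 and 2 left out (-1.42, adjusted p = 0.203). On the donor side, the nuclear lamin gene Lmna was at 214, 227 and 164 RPKM in the MEFs and 5.66, 4.16 and 3.07 RPKM in the embryos (difference -5.27 ± 0.30, adjusted p = 1.84e-05). The linker histone H1f0 of resting somatic cells was at 266, 351 and 214 RPKM in the MEFs and 19.7, 22.9 and 8.05 RPKM in the embryos (difference -4.05 ± 0.42, adjusted p = 2.45e-04), so H1f0 and H1foo lay in opposite directions. The B-type lamins Lmnb1 and Lmnb2 were not called.

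**Figure D3:**
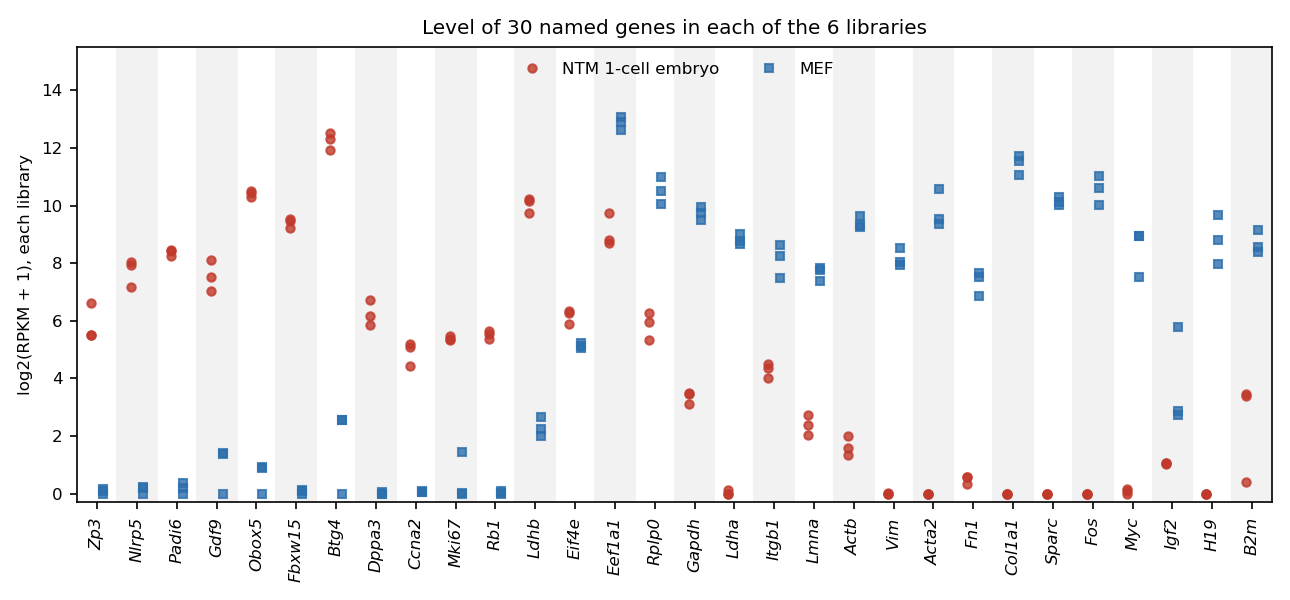
Level of 30 named genes in each library as log2(RPKM + 1), with NTM 1-cell embryos as red circles and MEF libraries as blue squares, 3 of each per gene. From Zp3 to Eif4e the embryos lie above the MEFs, and from Eef1a1 to B2m below them, with Acta2, Col1a1, Sparc, Fos and H19 at 0 in all 3 embryos.

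Pluripotency genes fell on both sides. Of 9 tested, 7 were higher and 2 lower (median 2.48). Sall4 was at 16.1, 24.5 and 21.3 RPKM in the embryos and 0.184, 0.171 and 0 RPKM in the MEFs (difference 4.26 ± 0.30, adjusted p = 4.37e-05). Pou5f1, which encodes Oct4, was at 0.785, 0.451 and 0.458 RPKM in the embryos and at 0 in the MEFs, and fell under the filter, as did Nanog, Sox2 and Prdm14. The lower 2, Klf4 and Myc, are growth regulators that fibroblasts use as well. Myc was at 491, 489 and 184 RPKM in the MEFs and 0.0766, 0 and 0.109 RPKM in the embryos (difference -8.38 ± 0.44, adjusted p = 1.33e-05), and Klf4 at 59.2, 25.8 and 47.5 RPKM in the MEFs and 1.71, 1.82 and 2.07 RPKM in the embryos (difference -3.90 ± 0.37, adjusted p = 1.60e-04). Genes of 2-cell genome activation were often at or near 0, with 5 of 10 under the filter and the other 5 all higher. Zscan4d was at 11.8, 0.531 and 5.28 RPKM in the embryos, a wide spread, and 0 in the MEFs (difference 2.31 ± 0.76, adjusted p = 0.0368), and Zfp352 was at 0 in all 6 libraries. The Zscan4d call was lost without MEF replicate 1, MEF replicate 2, MEF replicate 3, NTM 1-cell replicate 1 or NTM 1-cell replicate 3, at 1.63 to 2.31 and adjusted p-values of 0.0842 to 0.126. The count fell to 3 of 5 without any 1 MEF library and without NTM 1-cell replicate 1 or 3, and only 1 was still called with MEF replicates 1 and 2 left out.

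The fibroblast programme of matrix and contraction was lower throughout. Collagen genes were lower in 17 of 19 cases and higher in none (median -5.36), and 12 of the 19 were listed at 0 in every embryo. Col1a1 and Col1a2, the chains of type I collagen, were at 2140.0, 2980.5 and 3335 RPKM and 620.0, 902 and 988 RPKM in the MEFs and 0 in all embryos (differences of -11.44 ± 0.26 and -9.68 ± 0.28). Col3a1 was at 1558, 1971 and 1931 RPKM in the MEFs and 0 in the embryos (difference -10.82 ± 0.23, adjusted p = 3.02e-06). The 3 chains were abundant in every MEF library. Collagens made up 1.80% to 2.75% of the summed autosomal RPKM of the MEFs and 0.000708% to 0.00108% of that of the embryos.

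Matrix glycoproteins and proteoglycans were lower in 20 of 22 cases (median -6.30) and matrix enzymes in 23 of 24 (median -5.11), with none higher. Fibronectin, Fn1, was at 114, 203 and 184 RPKM in the MEFs and 0.508, 0.486 and 0.254 RPKM in the embryos (difference -6.85 ± 0.32, adjusted p = 9.07e-06). Sparc, a collagen-binding protein, was at 1107, 1024 and 1249 RPKM in the MEFs and 0 in the embryos (difference -10.13 ± 0.23, adjusted p = 3.02e-06). Periostin, Postn, was at 763, 582 and 1399.7 RPKM in the MEFs and 0.341, 0.117 and 0.327 RPKM in the embryos (difference -9.41 ± 0.37, adjusted p = 5.40e-06). The collagen crosslinking enzyme Lox was above 0 in 1 embryo only, at 0, 0.338 and 0 RPKM, against 546, 421 and 519.5 RPKM in the MEFs (difference -8.81 ± 0.27, adjusted p = 3.84e-06). Serpinh1, the collagen chaperone, was at 182, 176 and 178 RPKM in the MEFs and 0 in the embryos (difference -7.49 ± 0.25, adjusted p = 3.84e-06). The gelatinase Mmp2 had the highest embryo level of the matrix genes named here, at 20.1, 18.98 and 19.98 RPKM in the embryos and 170.1, 212 and 365 RPKM in the MEFs (difference -3.52 ± 0.32, adjusted p = 1.33e-04).

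Of 22 actin and contractile genes 20 were lower (median -5.78). Smooth muscle actin, Acta2, was at 657, 743 and 1528 RPKM in the MEFs and 0 in the embryos (difference -9.83 ± 0.37, adjusted p = 4.84e-06), and Tagln was at 304, 382 and 771 RPKM, with 1 embryo above 0 at 3.21 RPKM (difference -8.12 ± 0.66, adjusted p = 7.64e-05). Actb, the cytoplasmic actin that most tissues use as a reference, was at 2.00, 3.01 and 1.56 RPKM in the embryos and 612, 637 and 799.6 RPKM in the MEFs (difference -7.76 ± 0.28, adjusted p = 4.71e-06). Vim was at 367, 261 and 244 RPKM in the MEFs and 0, 0 and 0.0128 RPKM in the embryos (difference -8.16 ± 0.28, adjusted p = 4.39e-06). Myl9, whose promoter was printed with that of Zp3, was at 79.6, 262 and 385 RPKM in the MEFs and 0 in the embryos (difference -7.65 ± 0.58, adjusted p = 5.74e-05), while Srf, the factor that binds CArG boxes, was at 19.6, 9.89 and 0.480 RPKM in the MEFs and 3.16, 6.18 and 6.42 RPKM in the embryos and did not pass the test (difference -0.19 ± 0.94, adjusted p = 0.864). All 13 annexin, galectin and S100 genes tested were lower (median -5.49). Lgals1 was at 1617, 1445 and 1077 RPKM in the MEFs and 0, 1.10 and 0 RPKM in the embryos (difference -10.05 ± 0.38, adjusted p = 4.84e-06), and Anxa2 and S100a6 differed by -4.88 ± 0.30 and -4.72 ± 0.33.

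Transcription factors of mesenchyme were lower in 14 of 19 cases and higher in 1 (median -3.89). Snai2, a repressor of epithelial genes, was at 35.2, 25.3 and 44.2 RPKM in the MEFs and 0 in the embryos (difference -5.13 ± 0.32, adjusted p = 2.52e-05). Twist1 was at 6.28, 29.2 and 13.99 RPKM in the MEFs and 0 in the embryos (difference -3.89 ± 0.53, adjusted p = 8.29e-04), and the limb mesenchyme factor Prrx1 at 47.5, 18.2 and 28.0 RPKM in the MEFs and 0.0128, 1.44 and 1.42 RPKM in the embryos (difference -4.05 ± 0.51, adjusted p = 5.82e-04). The higher one was the forkhead gene Foxc1, at 0.768, 3.58 and 4.06 RPKM in the embryos and 0 in the MEFs (difference 1.79 ± 0.49, adjusted p = 0.0196). The Foxc1 call was lost without NTM 1-cell replicate 2 or NTM 1-cell replicate 3, at 1.51 to 1.58 and adjusted p-values of 0.0664 to 0.0685. Hox genes, which record the body position of a fibroblast, were low in both cells, since 18 of 34 were under the filter, and of the 16 tested 6 were lower and none higher. Hoxc8 was at 12.8, 1.600 and 4.05 RPKM in the MEFs and 0 in the embryos (difference -2.50 ± 0.62, adjusted p = 0.0122), and Hoxa5 was at 0 in all 6 libraries.

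Surface receptors and integrins were lower in 21 of 25 cases (median -4.19). The PDGF receptor Pdgfra was at 17.8, 25.7 and 20.9 RPKM in the MEFs and 0.0423, 0.702 and 0 RPKM in the embryos (difference -4.20 ± 0.34, adjusted p = 7.89e-05). Thy1 and the hyaluronan receptor Cd44 differed by -5.80 ± 0.31 and -4.85 ± 0.40. Itgb1, the integrin subunit that both egg and fibroblast use, was at 15.1, 19.8 and 21.5 RPKM in the embryos and 178, 394 and 302 RPKM in the MEFs (difference -3.83 ± 0.35, adjusted p = 1.24e-04), so it was detected in every embryo. Among secreted factors 18 of 24 were lower and 1 higher (median -4.21). Ccn1, a matricellular target of serum and mechanical tension, was at 2092, 1711 and 1852 RPKM in the MEFs and 0 in the embryos (difference -10.88 ± 0.23, adjusted p = 3.02e-06). Igfbp7 was at 579, 646 and 1117 RPKM in the MEFs and 1.23, 6.996 and 0.401 RPKM in the embryos (difference -8.00 ± 0.66, adjusted p = 8.10e-05). The exception was Tgfb2, at 30.8, 89.6 and 59.1 RPKM in the embryos and 2.09, 2.13 and 3.69 RPKM in the MEFs (difference 3.97 ± 0.45, adjusted p = 3.42e-04).

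Immediate early genes had the lowest median of all lists, at -7.82, with 10 of 11 lower and 5 of 11 listed at 0 in every embryo. Fos was at 1571, 2086 and 1039 RPKM in the MEFs and 0 in the embryos (difference -10.56 ± 0.32, adjusted p = 3.83e-06), and Jun at 195, 203 and 289 and 0 RPKM (difference -7.82 ± 0.28, adjusted p = 4.81e-06). These genes took 1.85% to 2.50% of the summed autosomal RPKM of the MEFs and 0.00171% to 0.00482% of that of the embryos. The MEFs had been serum-starved and were then trypsinised before use as donors, and what part of this level came from handling was not tested.

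Cell cycle genes fell on both sides. Replication and mitosis genes were higher in the embryos in 25 of 30 cases and lower in none (median 3.53). Mki67, the proliferation marker, was at 39.4, 40.0 and 42.9 RPKM in the embryos and 1.74, 0.0107 and 0 RPKM in the MEFs (difference 4.89 ± 0.45, adjusted p = 1.41e-04), and Ccna2 at 35.4, 20.7 and 33.4 RPKM in the embryos and 0.0349, 0.0661 and 0.0410 RPKM in the MEFs (difference 4.84 ± 0.32, adjusted p = 3.32e-05). Pcna showed a difference of 2.08 ± 0.51, adjusted p = 0.0119. That call was lost with MEF replicates 1 and 2 left out (2.46, adjusted p = 0.0951). Top2a, with 4.38, 9.38 and 2.82 RPKM in the embryos and 5.44, 0.0329 and 0 RPKM in the MEFs, did not pass the test (difference 1.67 ± 0.81, adjusted p = 0.119). Its highest MEF value lay within the range of the embryos. The Top2a call was made without MEF replicate 1 (2.56, adjusted p = 0.00801). G1 cyclins and CDK inhibitors were lower in 9 of 18 cases and higher in 2 (median -2.34). The inhibitor Cdkn1a was at 46.1, 22.1 and 4.25 RPKM in the MEFs and 0.0318, 0.0304 and 0.0545 RPKM in the embryos (difference -4.10 ± 0.77, adjusted p = 0.00364). Cyclin D1, Ccnd1, spread over 9.73, 20.4 and 0.0491 RPKM in the MEFs and was not called (difference -2.55 ± 1.06, adjusted p = 0.0790). Higher in the embryos were Ccne2, at 31.9, 40.6 and 37.7 RPKM against 10.1, 6.27 and 0.269 RPKM in the MEFs (difference 3.01 ± 0.78, adjusted p = 0.0152), and Rb1, at 45.1, 39.8 and 48.9 RPKM against 0.0552, 0.0269 and 0 RPKM in the MEFs (difference 5.47 ± 0.27, adjusted p = 1.08e-05). The Ccne2 call was lost without NTM 1-cell replicate 1, NTM 1-cell replicate 2 or NTM 1-cell replicate 3, at 2.93 to 3.10 and adjusted p-values of 0.0548 to 0.0658. The Ccnd1 call was made without MEF replicate 3 (-3.84, adjusted p = 8.70e-04). Ccne1 was not called (difference -0.33 ± 1.12, adjusted p = 0.806), and Cdkn2a was at 0 in all 6 libraries.

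DNA repair genes were split, with 15 of 41 higher, 6 lower and a median of 1.04. Brca1 was at 11.6, 11.7 and 16.9 RPKM in the embryos and 0.0195, 0.0284 and 0 RPKM in the MEFs (difference 3.80 ± 0.30, adjusted p = 6.58e-05), whereas Trp53 was at 6.44, 2.27 and 3.85 RPKM in the embryos and 47.5, 83.4 and 40.9 RPKM in the MEFs (difference -3.50 ± 0.43, adjusted p = 5.14e-04). Other lower genes included the base and strand break repair factors Xrcc1 (-3.28 ± 0.30), Prkdc (-1.10 ± 0.36) and Nbn (-2.38 ± 0.72), and the nuclease subunit Ercc1 (-3.37 ± 0.32). Xpc, a sensor of bulky DNA damage, had MEF values of 0.216, 7.26 and 3.87 RPKM that overlapped those of the embryos and did not pass the test (adjusted p = 0.421). The Xpc call was made without MEF replicate 1 (-1.46, adjusted p = 0.0151). The Nbn call was lost without MEF replicate 1, MEF replicate 3, NTM 1-cell replicate 1 or NTM 1-cell replicate 2, at -2.57 to -1.96 and adjusted p-values of 0.0533 to 0.109. The Prkdc call was lost without MEF replicate 2, MEF replicate 3, NTM 1-cell replicate 1 or NTM 1-cell replicate 3, at -1.15 to -0.98 and adjusted p-values of 0.0564 to 0.0729.

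Genes of the protein synthesis machinery were mostly lower in the embryos as a share of reads. What part the capture and amplification of their RNA had in this was not tested. Of 74 cytosolic ribosomal protein genes tested 68 were lower and none higher (median -3.54). The median was -3.21 when MEF replicates 1 and 2 were left out. Rplp0 was at 77.0, 39.0 and 61.1 RPKM in the embryos and 2034, 1435 and 1061 RPKM in the MEFs (difference -4.66 ± 0.34, adjusted p = 4.91e-05), and Rps6 at 17.3, 26.1 and 30.7 RPKM in the embryos and 1091, 868 and 578 RPKM in the MEFs (difference -5.03 ± 0.33, adjusted p = 3.14e-05). As a group they held 0.355% to 0.450% of the summed autosomal RPKM of the embryos and 3.60% to 6.01% of that of the MEFs. Rps15, Rps29, Rpl9, Rpl23a and Rpl38 were among those listed at 0 in all 3 embryos. Ribosomal protein genes have many processed pseudogenes, so single values are uncertain.

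Translation factors were divided, with 19 of 36 lower, 3 higher and a median of -1.37. Eef1a1 was among the lower ones. Eif1a was at 195, 119 and 75.5 RPKM in the MEFs and 0, 0 and 0.631 RPKM in the embryos (difference -6.69 ± 0.43, adjusted p = 3.07e-05). The cap-binding protein Eif4e was higher, at 58.9, 79.6 and 75.6 RPKM in the embryos and 33.9, 36.7 and 32.5 RPKM in the MEFs (difference 1.02 ± 0.24, adjusted p = 0.00969). Eif5 and Eif5b, which act on start codon choice and subunit joining, showed a difference of 1.04 ± 0.22, adjusted p = 0.00695, and a difference of 1.33 ± 0.34, adjusted p = 0.0147. These 3 calls were close to the threshold of 1. The Eif4e call was lost without MEF replicate 3, NTM 1-cell replicate 2 or NTM 1-cell replicate 3, at 0.94 to 0.98 and adjusted p-values of 0.0204 to 0.0329. The Eif5 call was lost without MEF replicate 1 or NTM 1-cell replicate 2, at 0.94 to 0.99 and adjusted p-values of 0.0148 to 0.0213. The Eif5b call was lost without NTM 1-cell replicate 1 (1.22, adjusted p = 0.0573). Another 4 of the 36, Eif4a2, Eif1, Eif2s1 and Eif3i, lay within 1 log2 unit by their 95% interval.

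In metabolism the lactate dehydrogenases lay on opposite sides. Ldha, the muscle-type subunit, was at 438, 406 and 514 RPKM in the MEFs and 0, 0 and 0.0813 RPKM in the embryos (difference -8.78 ± 0.25, adjusted p = 3.34e-06). Ldhb, the heart-type subunit, was at 5.35, 2.97 and 3.795 RPKM in the MEFs and 1198, 850.4 and 1146 RPKM in the embryos (difference 7.74 ± 0.28, adjusted p = 4.81e-06). The 2 genes did not overlap between groups in either direction. Ldhb was the only gene of the glycolysis list that was higher, and 14 of 21 were lower (median -2.63). Gapdh, often used to normalise, was at 10.1, 10.4 and 7.68 RPKM in the embryos and 849, 716 and 990.1 RPKM in the MEFs (difference -6.36 ± 0.24, adjusted p = 4.84e-06), and Aldoa at 6.04, 6.71 and 7.50 RPKM in the embryos and 156, 128 and 167 RPKM in the MEFs (difference -4.29 ± 0.25, adjusted p = 2.06e-05). Nuclear genes of the respiratory chain were lower in 45 of 59 cases and higher in 2 (median -2.06). The ATP synthase subunit Atp5b was at 112, 71.3 and 89.0 RPKM in the embryos and 341, 288 and 288 RPKM in the MEFs (difference -1.76 ± 0.23, adjusted p = 7.30e-04), and Cox4i1 showed a difference of -3.54 ± 0.28, adjusted p = 6.88e-05. Higher were 2 subunits of cytochrome c oxidase, Cox8a at 305, 244 and 234 RPKM against 91.7, 60.5 and 85.5 RPKM in the MEFs (difference 1.72 ± 0.24, adjusted p = 0.00103) and Cox7a2 at 46.6, 35.7 and 66.2 RPKM against 29.7, 15.9 and 20.05 RPKM in the MEFs (difference 1.14 ± 0.36, adjusted p = 0.0308). The Cox7a2 call was lost without MEF replicate 2, MEF replicate 3, NTM 1-cell replicate 1 or NTM 1-cell replicate 3, at 0.91 to 1.16 and adjusted p-values of 0.0716 to 0.102. Secretory and lysosomal genes were lower in 19 of 22 cases (median -3.97), with the chaperone Calr at 371, 366 and 381 RPKM in the MEFs and 5.003, 14.1 and 4.75 RPKM in the embryos (difference -5.54 ± 0.41, adjusted p = 5.13e-05). Its partner Canx was among the genes at a like level, with means of 151 and 129 RPKM. The proteases and sphingolipid activators Ctsb and Psap differed by -4.76 ± 0.40 and -6.59 ± 0.38.

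Imprinted genes, which are expressed from 1 parental copy, were mostly lower in the embryos. Of 11 paternally expressed genes tested 8 were lower and none higher (median -2.73), and of 9 maternally expressed genes 6 were lower and 1 higher (median -3.57). H19 was at 247, 443 and 823 RPKM in the MEFs and 0 in the embryos (difference -8.81 ± 0.45, adjusted p = 1.27e-05), Peg3 at 25.3, 29.98 and 51.3 RPKM in the MEFs and 0.615, 0.0966 and 0.760 RPKM in the embryos (difference -4.58 ± 0.38, adjusted p = 8.74e-05) and Igf2r at 19.6, 15.51 and 35.4 RPKM in the MEFs and 0.965, 0.0717 and 0.141 RPKM in the embryos (difference -4.11 ± 0.43, adjusted p = 2.39e-04). For Meg3 and Snrpn the differences were -4.06 ± 0.30 and -3.38 ± 0.57. MEF replicate 3 stood apart for Igf2, at 5.56, 6.31 and 54.4 RPKM against 1.04, 1.11 and 1.10 RPKM in the embryos (difference -2.73 ± 0.82, adjusted p = 0.0262), and for Mest, at 4.69, 11.3 and 199 RPKM against 7.13, 11.97 and 4.02 RPKM, which was not called (difference -1.58 ± 1.27, adjusted p = 0.321). The Igf2 call was lost without NTM 1-cell replicate 1, NTM 1-cell replicate 2 or NTM 1-cell replicate 3, at -2.74 to -2.72 and adjusted p-values of 0.0880 to 0.0889. The higher gene was Phlda2, a growth restrainer of the placenta, at 11.8, 4.56 and 10.7 RPKM in the embryos and 0, 0.0356 and 0 RPKM in the MEFs (difference 3.22 ± 0.40, adjusted p = 5.68e-04). Dlk1, at 0 in the embryos and 0.461, 0.439 and 1.76 RPKM in the MEFs, was not tested. MHC class I and interferon genes were lower in 9 of 13 cases (median -3.36). B2m was at 561, 331 and 374 RPKM in the MEFs and 0.329, 9.99 and 9.44 RPKM in the embryos (difference -6.27 ± 0.82, adjusted p = 7.00e-04), H2-K1 at 47.3, 110.4 and 27.8 RPKM in the MEFs and 0.677, 3.01 and 4.88 RPKM in the embryos (difference -3.98 ± 0.65, adjusted p = 0.00200), and Ifitm3 at 963, 458 and 321 RPKM in the MEFs and 78.4, 21.3 and 72.6 RPKM in the embryos (difference -3.36 ± 0.61, adjusted p = 0.00313). With MEF replicates 1 and 2 left out, 5 of 10 were lower, and B2m (-6.13, adjusted p = 0.0824), H2-K1 (-3.08, adjusted p = 0.0922) and Ifitm3 (-2.67, adjusted p = 0.141) lost their calls.

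A few abundant genes were at a like level in both cells. Among the 152 were the nucleic acid binding protein Cnbp at a mean of 431 RPKM in the embryos and 610.1 RPKM in the MEFs, the polyamine regulator Oaz1 at 288 and 312 RPKM, and the mitochondrial channel Vdac3 at 259.8 and 319 RPKM. Their differences were -0.50, -0.09 and -0.27, with 95% intervals of -0.92 to -0.07, -0.73 to 0.55 and -0.76 to 0.22. These genes were chosen after their values were seen. The number depended on the setting. It was 79 with a pseudocount of 0.1, 4116 with no filter on low values, and 76, 96 and 78 without NTM 1-cell replicate 1, 2 or 3.

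How much fibroblast RNA was left in the embryo was read from genes that were high in the MEFs and listed at 0 in fertilised embryos. There were 371 autosomal genes at 10 RPKM or more in every MEF library and at 0 in all 3 in vivo 1-cell embryos. Of these 70, 39 and 59 were above 0 in the 3 NTM 1-cell embryos, with summed levels of 32.5, 24.1 and 55.0 RPKM against 52679 to 57117 RPKM in the MEFs, so that 0.0444% to 0.101% of the mean MEF level was seen. In NTC 1-cell embryos, which had received a cumulus cell nucleus, 130, 107 and 121 of the same genes were above 0, with sums of 107, 95.2 and 117 RPKM. Each NTM embryo held fewer of these genes than each NTC embryo, a difference that was not tested. NTC embryos also had more genes above 0 in the whole table, 14021 to 14270 against 12097 to 12346 in NTM embryos. The CC libraries held 356 to 364 of the 371 above 0. In the 85 that were under 1 RPKM in every CC library, 8, 4 and 7 were above 0 in NTM embryos and 17, 13 and 8 in NTC embryos, and the summed levels were 5.04, 1.42 and 7.13 RPKM against 8.24, 6.90 and 9.27 RPKM. No excess of these transcripts in NTM over NTC embryos was detectable in these libraries. Over the 371 genes, 256 were above 0 in no NTM embryo and 13 in all 3. Among the 13 was the tubulin gene Tuba1a, at 0.214, 0.123 and 0.110 RPKM in the NTM embryos and 942, 1164 and 854 RPKM in the MEFs, named after its values were seen. It was also at 0.540, 2.10 and 3.73 RPKM in NTC embryos and 619, 121 and 356 RPKM in the CC libraries. Its source in the embryos was not tested.

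**Figure D4:**
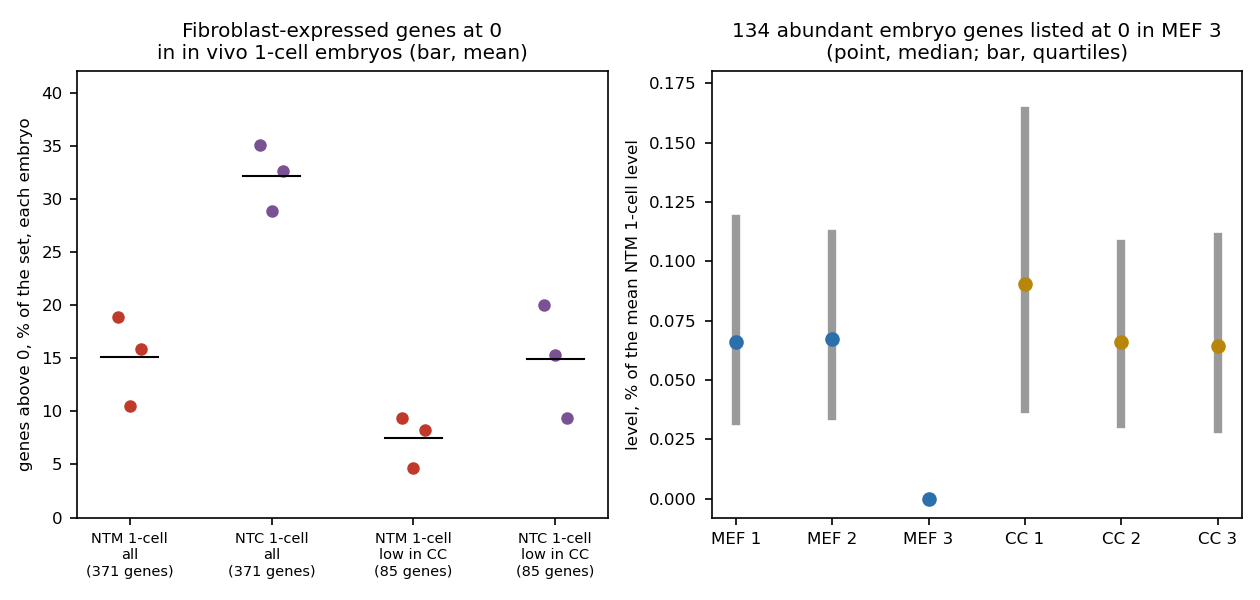
Left, share of fibroblast-expressed genes (10 RPKM or more in every MEF library, 0 in every in vivo 1-cell embryo) above 0 in each NTM and NTC 1-cell embryo, over all 371 genes and over the 85 under 1 RPKM in every CC library (low in CC), with points for embryos and bars for the mean. Right, level of the 134 abundant embryo genes listed at 0 in MEF replicate 3 in each donor library, as % of the mean NTM 1-cell level, with the median as a point and the quartiles as a bar. NTM embryos lie at 10.5% to 18.9% over the 371 genes and NTC embryos at 28.8% to 35.0%, and the 5 donor libraries other than MEF replicate 3 lie at medians of 0.0642% to 0.0902%.

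Whether the gap between embryo and donor was particular to the fibroblast pair was tested against the cumulus pair, NTC 1-cell embryos and CCs, which shares no library with it. The NTC embryos were made in the same way with cumulus cell nuclei of BDF1 females. In that pair 3568 of 12278 autosomal genes were higher (29.1%) and 2567 lower (20.9%). By the interaction term, of 13113 genes the difference was more positive in the fibroblast pair for 482 (3.68%) and more negative for 1223 (9.33%). Under median-ratio scaling the counts were 681 and 1033, which moved the positive share from 28.3% to 39.7%. Collagens were more negative in the fibroblast pair in 13 of 18 cases, matrix glycoproteins in 13 of 22, secreted factors in 15 of 24 and mesenchymal transcription factors in 9 of 18, with none, none, none and 1 more positive. Where a gene is at 0 in both kinds of embryo, the term is the difference between MEFs and CCs alone. Of 19 collagens tested between NTM embryos and MEFs, 12 were listed at 0 in every NTM embryo. These lists were chosen as fibroblast genes, so their direction here follows largely from that choice and is not a result about the embryos. Other fibroblast lists ranged from 1 of 13 annexins, galectins and S100 genes and 2 of 11 immediate early genes to 10 of 24 receptors more negative. In them 1 receptor, 1 matrix enzyme and 1 actin gene were more positive. Of the oocyte lists, 1 of 6 egg coat genes and 1 of 8 Nlrp genes were more negative and 1 Nlrp and 1 of 12 Fbxw genes more positive. Of 7 subcortical complex genes 1 was more negative and 1 more positive, and of 26 chromatin factors 2 and 1. More negative were also 1 of 4 growth factor and receptor genes, 1 of 7 transcription factor genes and 2 of 16 meiotic genes. Of 18 genes of maternal RNA storage and decay 5 were more negative and 1 more positive, and of 10 pluripotency factors 5 and 1. Ribosomal protein genes were lower in both pairs, 68 of 74 and 61 of 74, and the interaction was called for 8 of 74.

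By gene, the interaction for Col1a1 was -10.23 ± 0.39 (SE), adjusted p = 1.09e-07, and for Acta2 -9.25 ± 0.48, adjusted p = 7.07e-07. Ldha was called lower in both pairs, with an interaction of 0.03 ± 0.80 (adjusted p = 0.987), which does not show that the pairs were equal. Rb1 was more positive in the fibroblast pair by 4.45 ± 0.39, adjusted p = 2.64e-05. Its CC values were 8.38, 11.4 and 7.86 RPKM, against 0.0552, 0.0269 and 0 RPKM in the MEFs.

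Set beside other 1-cell embryos, few genes of the NTM embryos were called against in vivo ones. NTM and in vivo embryos differed in egg donor strain, nuclear transfer, activation and culture, which cannot be told apart. Of 9873 autosomal genes 128 (1.30%) were called, of which 36 (0.365%) were higher and 92 (0.932%) lower than in in vivo 1-cell embryos. That number rested on single libraries, since it was 826 without in vivo replicate 1, a library with 13.4% mitochondrial reads against 4.71% and 6.26% in the other two, and 16 without NTM 1-cell replicate 1. The collagen, matrix glycoprotein, matrix enzyme, actin, annexin, receptor and immediate early lists had 2, 7, 4, 10, 3, 10 and 4 genes tested and 0 called, which beside 1.30% over all genes is not a result about the lists. Against NTC 1-cell embryos 581 (5.62%) of 10343 were higher and 1483 (14.3%) lower. There the lower genes numbered 0 of 2 collagens, 0 of 5 matrix glycoproteins, 1 of 4 matrix enzymes, 5 of 13 actin genes, 0 of 3 annexins, galectins and S100 genes, 2 of 10 receptors, 3 of 11 secreted factors, 1 of 8 mesenchymal transcription factors and 2 of 6 immediate early genes. In these lists 1 actin gene was higher.

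How the lists stood at later stages of NTM embryos was followed as a description, since all stages share the MEF libraries. The median over the 12 Fbxw genes was 7.94 ± 0.23 (± SD, n = 3) above the MEFs at the 1-cell stage and 0.37 ± 0.30 at the 4-cell stage. Ribosomal protein genes went from -3.44 at the 1-cell stage to 0.27 at the 4-cell stage. Mitochondrial reads, part of the total to which RPKM is scaled, made up 2.92% to 4.19% of reads in NTM 1-cell libraries. Their share was 29.6% to 40.4% in NTM 4-cell and 5.68% to 8.87% in in vivo 4-cell libraries. Its part in the medians of later stages was not tested. Collagen medians lay between -5.66 and -5.25 over the 6 stages, where -5.66 is the lowest value that median can take, so a further decrease could not have been seen. Medians of immediate early genes lay between -8.30 and -7.14, with a lowest possible value of -8.80. The actin list moved from -5.81 at the 1-cell stage to -3.34 at the blastula stage. In vivo embryos had collagen medians of -5.66 to -5.33 over the same stages.

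**Figure D5:**
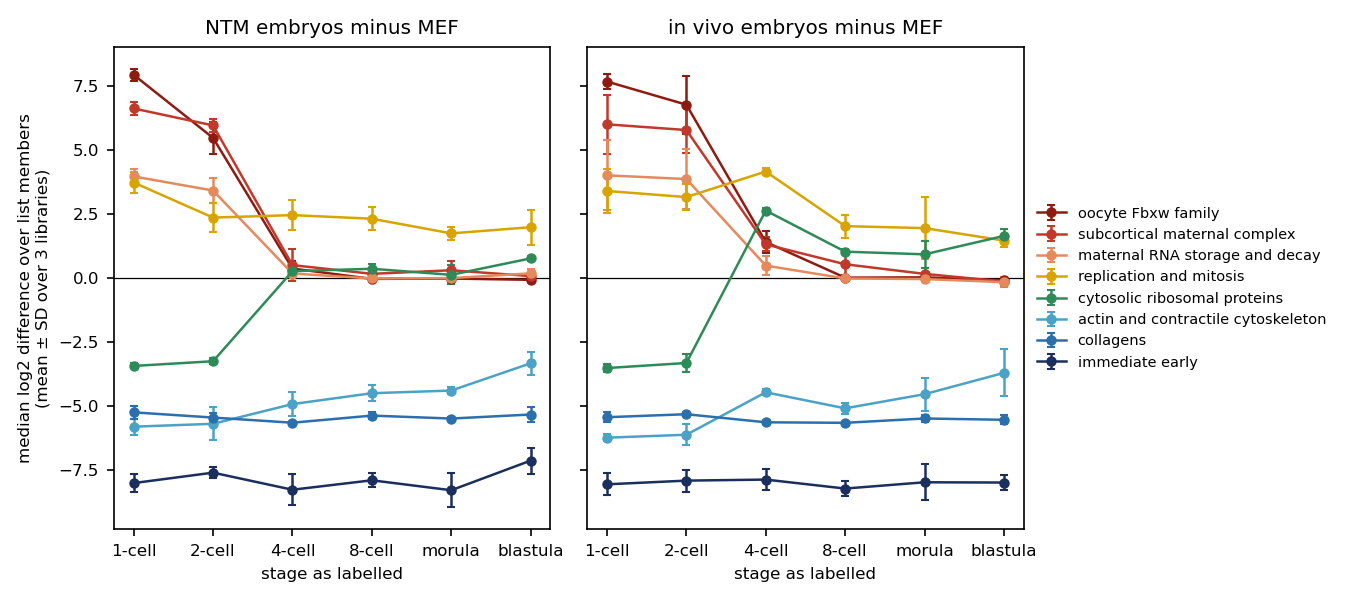
Median log2 difference from the MEFs over all autosomal members of 8 lists, by stage, in NTM embryos on the left and in vivo embryos on the right, as mean ± SD over 3 libraries. The Fbxw line falls from 7.94 at the 1-cell stage to 0.37 at the 4-cell stage in NTM embryos, while collagens lie at -5.25 and -5.34 at the first and last stage. RPKM is scaled to all reads on genes, and the mitochondrial share of these differed between stages and between the panels.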

How the data were processed

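RNA was measured by sequencing of single embryos and of donor cells, and the authors deposited 1 table of RPKM values for the 60 libraries. Their notes name Bowtie 0.12.2 and the build mm8, whereas the methods describe a later aligner and counter, so the software version behind the values is uncertain. The exon lengths behind the values matched those of a GRCm38 annotation for 20697 genes. The table gives no read counts per gene. RPKM does not correct for RNA content per embryo, so a difference is one of shares. The paper describes amplification of the cDNA before sequencing, so these are shares of captured and amplified molecules. The step between low RPKM values of a gene, with its exon length, gave the number of reads on genes in each library.

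Groups came from the sample labels. NTM 1-cell embryos and MEFs, 3 libraries each, were compared with limma 3.58.1 in R 4.3.3 on log2(RPKM + 1), with empirical Bayes moderation, for genes with a mean of at least 0.5 RPKM over the 6 libraries. P-values were adjusted over all genes tested by the Benjamini-Hochberg method, and autosomal genes were reported. The same test was used for NTC 1-cell against CC, NTM 1-cell against in vivo and against NTC 1-cell, and, over the 4 groups of the donor pairs, for the interaction. Tables were handled in Python 3.11.15. The fit of NTM 1-cell against MEF was tested on simulated data with 200 changed genes among 13055, a smaller share than was called in the real data. It recovered 21% of changes of 2 log2 units and 61% of changes of 4. With fewer changed genes the adjusted p is harder to pass, so these rates are not those of the real fit. No changed gene was called with the wrong sign, and 4 unchanged genes were called. A gene that did not pass the test may still differ. Because the values are RPKM, no count model was used.

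The members and lists were chosen with earlier results of these data known. Genes named with values were those marked in the lists, called members opposite in sign to the median of their list, and the 10 largest called differences each way with groups that did not overlap, leaving out gene models and unnamed IDs (5 among the higher and 0 among the lower). Any other gene named was chosen after its values were seen. Alternatives covered the pseudocount (0.1), the filter (none, or 2 RPKM), scaling, 1 fit over all groups, a replicate block and leaving out each library. Reads thinned to equal depth and the omission of MEF replicates 1 and 2 were added after seeing the data. Promoters came from RefSeq tables (GRCm38.p6). Genes annotated off the autosomes (1208) and without annotation (182) were left out. Values of some list members are not reported here.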

Additional observations from a re-analysis of the deposited data

Results flagged for a closer look

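The embryo minus donor difference of the fibroblast pair was set against that of the cumulus cell pair by an interaction term in limma, and 1705 of 13113 autosomal genes passed at an adjusted p under 0.05 and a size of at least 1, 482 of them more positive (3.68%) and 1223 more negative (9.33%). A negative value means that the difference was more negative in the fibroblast pair. The values below are those of the named genes past that threshold, on the log2(RPKM + 1) scale. No group held the 4 samples needed for a test of single outlying libraries.

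Among oocyte, chromatin and pluripotency genes the terms were -1.73 for Izumo1r, -2.90 for Nlrp9b, -1.35 for Kit, -2.02 for Nobox, 1.56 for Fbxw24 and -4.71 for Ybx2. Further terms were -3.44 for Zfp36l2, -2.19 for Tut7, -1.40 for Npm2, 1.40 for Dppa3, -1.59 for Lmna and -2.97 for Pou5f1. Further terms were -7.40 for Klf4 and -2.85 for Myc.

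Among matrix and contractile genes they were -10.23 for Col1a1, -9.17 for Col1a2, -9.90 for Col3a1, -6.30 for Fn1, -3.66 for Sparc and -9.00 for Postn. Further terms were -10.03 for Dcn, -1.67 for Lox, -5.30 for Mmp2, -9.57 for Serpinf1, -9.25 for Acta2 and -6.58 for Tagln. Further terms were -1.78 for Actb and -2.30 for Lgals1. Genes listed at 0 in both kinds of embryo differ here through the donor level alone.

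Among mesenchymal factors, receptors, signals and immediate early genes they were -3.87 for Twist1, -5.03 for Prrx1, -5.10 for Snai2, -4.31 for Pdgfra, -6.01 for Thy1 and -7.05 for Ccn1. Further terms were -3.51 for Igf2, -8.23 for Igfbp7, -3.78 for Kitl, -3.13 for Tgfb2 and -10.16 for Ccl2.

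In the remaining lists and the genes with the largest differences they were -1.52 for Rps6, -1.33 for Eef1a1, 2.40 for Atp5b, 3.28 for Cox7a2, 2.03 for Cox8a and 2.65 for Brca1. Further terms were -2.73 for Trp53, -3.10 for Nbn, -2.55 for Xrcc1, -5.43 for Peg3, -5.09 for Mest and -8.57 for H19. Further terms were 2.68 for Phlda2, -6.42 for Ifitm3, -3.21 for Calr, 4.45 for Rb1, 2.10 for Rfpl4 and -6.63 for Cxcl1. Further terms were -9.62 for Ccl7. The traces of oocyte transcripts in MEF replicates 1 and 2 and in the CC libraries touch both donors, and their part in these terms was not tested.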

How the results depend on the processing

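The count of autosomal genes called between NTM 1-cell embryos and MEFs was 5162 to 7995 over all alternatives and 6019 to 6963 with single libraries left out, and no named gene changed direction. Of 138 named genes tested, 105 kept their call under every alternative and 33 changed it under at least 1. The count at a like level was 79 with a pseudocount of 0.1, 4116 with no filter, 51 under the replicate block and 76 to 158 with single libraries left out.

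Against in vivo 1-cell embryos the called genes numbered 45 with no filter, 684 with 1 fit over all 20 groups, 67 under the replicate block and 16 to 826 with single libraries left out (826 without in vivo replicate 1). Against NTC 1-cell embryos they numbered 1025 with 1 fit over all 20 groups and 1153 to 2432 with single libraries left out. For the cumulus pair the range was 5041 to 6687, and for the interaction 1186 to 2001. The mean share of fibroblast transcripts above 0 was 15.1% and became 19.9% when in vivo embryos could hold up to 0.1 RPKM. The causes were not tested.

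Same-numbered embryos and MEFs did not deviate together (r = -0.0065, 0.0116 and -0.0035 for numbers 1, 2 and 3), so they share only a number. With the replicate block 6706 genes were called against 6911, and the interaction was called for 1430 genes. Among named genes Ybx2 (1.52, adjusted p = 0.0517 by limma) and Prkdc (-1.10, adjusted p = 0.127) were not called there and Ccnd1 was (-2.55, adjusted p = 0.0418), with differences equal to those without the block. Among the lists, Hox genes lower in the embryos numbered 11 with 1 fit over all 20 groups. With the reads thinned to equal depth, an alternative added after seeing the data, 6918 genes were called. The embryo libraries hold fewer reads than the MEFs, which limits what a value of 0 can show in them.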

Other observations

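Of the markers of cell types other than oocyte, fibroblast and cumulus cell, some were called higher in the embryos. Cdh1, the adhesion protein of epithelia and of the early embryo, was at 9.25, 13.2 and 9.51 RPKM in the embryos and 0.0363, 0.0354 and 0 RPKM in the MEFs (difference 3.49 ± 0.30, adjusted p = 9.26e-05 by limma). Tubb3, a tubulin used as a neuronal marker, was at 21.2, 16.9 and 20.3 RPKM in the embryos and 0.0635, 2.96 and 0 RPKM in the MEFs (difference 3.66 ± 0.57, adjusted p = 0.00157 by limma). Sox9, a cartilage factor, was at 5.39, 11.7 and 0.0303 RPKM in the MEFs and 0 in the embryos, and was not called (adjusted p = 0.0813 by limma). Muscle and red cell markers were at 0 or near 0 in all 6 libraries. These genes were picked after their values were seen.

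By chromosome the share of tested genes higher in the embryos was 20.2% on chromosome 19 and 31.1% on chromosome 13. Median exon length was 4345 nt for higher genes, 3850.5 nt for lower genes and 4109.5 nt for genes not called. Of higher genes 88.7% and of lower genes 95.1% were protein coding.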
